A study of Homo sapiens with 12 samples.

Results

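DKK1, UACA, GPRC5A and PHLDB2 are 4 of the 58676 genes in the deposited expression table of an A549 study. They were chosen by their measured bortezomib response: lower after bortezomib than after vehicle in the control line, and less so, or in the other direction, in the knockout lines. A549 is an established human lung adenocarcinoma line. The 12 bulk RNA-seq libraries came from 3 A549 lines, Control1, NFE2L1 KO1 and NFE2L1 KO2. Each line was given DMSO vehicle or 200 nM bortezomib over 4 h, which makes 6 groups of 2 libraries. One control line and 2 knockout lines were used, and how the knockouts were made, and whether a line is 1 clone, are not given in the sources used here. The title suffix R2 marks 1 library of each group. The other library is marked R1 in the knockout groups and has no number in the control groups, and these 6 are called the first set here. Because the choice used the response of each line, the values of the 4 genes between vehicle and bortezomib, and between knockout and control, are given as descriptions with no test. The contrast between KO1 and KO2 was not itself a criterion of the choice and was tested. The choice did use the response of both knockout lines, taken from their vehicle and bortezomib values. The contrast between KO1 and KO2 is therefore not independent of the choice with vehicle, with bortezomib or for the response.

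Bortezomib blocks the proteasome, the complex that degrades ubiquitin-tagged proteins. NFE2L1, also called NRF1, is a membrane-bound transcription factor that is cleaved and enters the nucleus when proteasome activity is low, where it raises proteasome subunit genes. The 4 genes belong to different systems. DKK1 is a secreted Wnt antagonist that binds the co-receptors LRP5 and LRP6. UACA, also called nucling, is a coiled-coil ankyrin-repeat protein linked to the apoptosome and to the pro-apoptotic protein PAWR. GPRC5A is an orphan G protein-coupled receptor, induced by retinoic acid and abundant in lung epithelium. PHLDB2, also called LL5beta, sits at the cell cortex and anchors microtubule ends through CLASP proteins.

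The promoter windows are shown so that the letters around the starts of these genes, which share a lower level with bortezomib in the control line, can be compared. RefSeq windows on GRCh38.p14, from 250 bases before to 50 bases after a start, were matched by symbol for 3 of the 4 genes, as 6 windows. No GPRC5A window was matched. Capitals mark the matches to 7 motifs searched on both strands.
DKK1, chr10:52314031-52314330, plus strand: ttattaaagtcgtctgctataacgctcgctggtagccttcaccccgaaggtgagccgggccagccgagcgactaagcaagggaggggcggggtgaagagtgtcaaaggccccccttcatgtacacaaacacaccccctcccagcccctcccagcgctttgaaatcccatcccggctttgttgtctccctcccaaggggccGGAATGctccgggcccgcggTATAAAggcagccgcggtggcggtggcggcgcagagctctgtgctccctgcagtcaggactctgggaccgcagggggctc
UACA, chr15:70763509-70763808, minus strand: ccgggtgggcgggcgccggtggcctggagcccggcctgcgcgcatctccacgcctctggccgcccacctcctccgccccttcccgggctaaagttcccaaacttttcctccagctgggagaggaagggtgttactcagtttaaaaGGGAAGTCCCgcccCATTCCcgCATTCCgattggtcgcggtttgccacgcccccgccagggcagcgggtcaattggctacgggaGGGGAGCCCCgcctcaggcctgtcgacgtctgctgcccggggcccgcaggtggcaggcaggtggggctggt
PHLDB2 at the deposited start, chr3:111732246-111732545, plus strand: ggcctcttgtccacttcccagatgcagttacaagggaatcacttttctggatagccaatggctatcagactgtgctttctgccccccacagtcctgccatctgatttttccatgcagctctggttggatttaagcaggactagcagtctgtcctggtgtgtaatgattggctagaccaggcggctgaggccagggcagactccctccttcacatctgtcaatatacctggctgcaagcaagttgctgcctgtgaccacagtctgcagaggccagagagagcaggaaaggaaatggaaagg
PHLDB2 downstream, chr3:111858930-111859229, plus strand: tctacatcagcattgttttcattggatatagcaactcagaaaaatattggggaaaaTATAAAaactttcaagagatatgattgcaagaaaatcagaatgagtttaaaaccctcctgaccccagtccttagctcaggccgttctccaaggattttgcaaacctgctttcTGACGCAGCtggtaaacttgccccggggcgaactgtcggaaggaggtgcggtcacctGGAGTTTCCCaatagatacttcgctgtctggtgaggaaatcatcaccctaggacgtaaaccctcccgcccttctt
The DKK1 window held the TEAD letters GGAATG at -50 and a TATA box, TATAAA, at -30 from the start. The UACA window held the TEAD letters on the reverse strand, as CATTCC, at -91 and -83, and NF-kappaB matches at -105 and -21. The downstream PHLDB2 window held the antioxidant response element core TGACNNNGC at -82, an NF-kappaB match at -25 and TATAAA at -194. It is 1 of 4 PHLDB2 windows, its start lies 126683 bases from the deposited gene start, and it is printed because it held the most matches of the 4, so its matches are not typical of the gene. The PHLDB2 window at the deposited start and the one at chr3:111859577-111859876 held no match to any of the 7, and the remaining one overlaps the printed downstream window. Of all 35116 windows of the same length, 13.3% held the antioxidant response element core, 14% the TEAD letters, 5.91% the NF-kappaB motif and 11.5% TATAAA. The other motifs, AP-1 (TGANTCA), heat shock element pair (GAANNTTC) and CRE (TGACGTCA), were in 7.71%, 6.77% and 1.85% of all windows and in none of these 6. No motif was in the windows of all 3 genes. GC content was 63.7% for DKK1 and 69.3% for UACA, and 52.3% at the deposited PHLDB2 start, 45.7% in the printed downstream window and 52.7% and 74.3% in the other PHLDB2 windows, beside a median of 58.7%. A match describes letters and not a bound site.

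Libraries held 13211608 to 23819258 reads assigned to genes. The R2 libraries stood apart: mitochondrial genes took 12.3% to 19.3% of their reads, against 5.44% to 6.80% in the first set, in every line and treatment. NFE2L1 itself was 72.7 FPKM (fragments scaled by gene length and by library total) in the first set and 151 in R2 in control with vehicle, and 109 and 189 with bortezomib. It was 8.45 and 14.8 in KO1 with vehicle and 27.0 and 35.8 with bortezomib, and 18.6 and 33.6 in KO2 with vehicle and 36.7 and 50.8 with bortezomib. Each knockout library was below the control library of its set and treatment, at 9.82% to 24.8% of it in KO1 and 22.3% to 33.7% in KO2. The 5 epithelial markers EPCAM, KRT7, KRT8, KRT18 and KRT19 summed to 517 to 1925 FPKM. The 3 leukocyte markers summed to at most 3.63 and the 3 endothelial markers to at most 0.240. The 3 fibroblast markers summed to 1.56 to 23.6, nearly all of it COL1A1 (1.42 to 23.3), with DCN at most 0.0425. In bulk RNA, fewer cells expressing a gene and less RNA per cell cannot be told apart.

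DKK1 had the lowest ratio of bortezomib to vehicle of the 4 genes in the control line, and was also lower with bortezomib in KO2. The gene (ENSG00000107984) lies on chr10:52314296-52318042, plus strand. In the control line it was 62.5 FPKM in the first set and 292 in R2 with vehicle, and 17.3 and 65.7 with bortezomib. In KO1 it was 97.7 and 193 with vehicle and 115 and 163 with bortezomib. In KO2 it was 88.6 and 175 with vehicle and 51.1 and 96.8 with bortezomib. The 2 groups overlap within each line, since R2 was higher than the first set in every group. Bortezomib libraries of the control line held 27.6% and 22.5% of their vehicle partners' level. In KO2 the figures were 57.6% and 55.4%, so the description "only in control" does not hold for the DKK1 values. Being lower in both KO2 pairs is common, at 40.3% of genes averaging at least 1 FPKM. In KO1 the 2 pairs went in opposite directions (118% and 84.3%). The log2 ratio of bortezomib to vehicle averaged -2.00 ± 0.21 in control, -0.01 ± 0.34 in KO1 and -0.82 ± 0.04 in KO2 (mean ± SD over the 2 same-set pairs, as for each gene below).

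UACA was lower with bortezomib in both pairs of all 3 lines, by the most in the control line. The gene (ENSG00000137831) lies on chr15:70654554-70763593, minus strand. Control libraries held 15.9 and 9.64 FPKM with vehicle and 6.64 and 3.33 with bortezomib. KO1 held 12.7 and 8.68 with vehicle and 11.6 and 6.91 with bortezomib. KO2 held 17.6 and 11.8 with vehicle and 17.0 and 10.9 with bortezomib. The 2 control vehicle libraries lie above both control bortezomib libraries, while in each knockout line the vehicle and bortezomib libraries overlap. The log2 ratios averaged -1.39 ± 0.20 in control, -0.23 ± 0.14 in KO1 and -0.08 ± 0.04 in KO2. Bortezomib libraries held 41.9% and 34.5% of their vehicle partners' level in control, 91.4% and 79.7% in KO1 and 96.6% and 92.8% in KO2. Both pairs were lower for 36.6% of genes averaging at least 1 FPKM in KO1, and for 40.3% in KO2. The knockout values therefore do not settle whether UACA was repressed there. In KO1 the log2 ratios were -0.13 and -0.33, with 95% counting half-widths of 0.09 and 0.10. In KO2 they were -0.05 and -0.11, with half-widths of 0.06 and 0.08. These half-widths cover counting error only, leave out the spread between libraries and are no test of the response. Fitted on all libraries without pairing, the response was -0.21 in KO1 and -0.07 in KO2, each with an SE of 0.44. A pair of non-coding genes overlap UACA, at no more than 0.671 FPKM.

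GPRC5A was lower with bortezomib in the control line and higher in both knockout lines. The gene (ENSG00000013588) lies on chr12:12890782-12917937, plus strand. Control libraries held 41.6 and 109.8 FPKM with vehicle and 32.8 and 66.0 with bortezomib. KO1 held 69.1 and 129 with vehicle and 124 and 214 with bortezomib. KO2 held 65.9 and 124 with vehicle and 105 and 218 with bortezomib. Vehicle and bortezomib libraries overlap within each of the 3 lines, because R2 is higher than the first set, but the direction is the same in both sets. Bortezomib libraries held 78.9% and 60.1% of their vehicle partners in control, while the ratio was 1.80- and 1.66-fold in KO1 and 1.59- and 1.76-fold in KO2. The log2 ratios averaged -0.54 ± 0.28, 0.79 ± 0.08 and 0.74 ± 0.11 in control, KO1 and KO2. The control response of this gene rests on the pairing: fitted on all libraries without pairing it was -0.53, and without the control vehicle R2 library 0.16.

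PHLDB2 showed the same split of directions at a lower level. The gene (ENSG00000144824) lies on chr3:111732497-111976517, plus strand. Control libraries held 8.05 and 6.60 FPKM with vehicle and 6.0 and 3.55 with bortezomib. KO1 held 10.7 and 5.45 with vehicle and 24.4 and 7.69 with bortezomib. KO2 held 9.81 and 4.26 with vehicle and 23.0 and 7.99 with bortezomib. The control vehicle libraries lie above the control bortezomib libraries, and in each knockout line the groups overlap, with the first-set bortezomib library far above the other 3. The log2 ratios averaged -0.66 ± 0.33 in control, 0.85 ± 0.49 in KO1 and 1.07 ± 0.23 in KO2. PLCXD2, a protein-coding gene on the same strand, overlaps PHLDB2, and how reads of the shared stretch were divided is uncertain. PLCXD2 was higher with bortezomib in all 3 lines, by 1.94- and 1.80-fold in control, 4.36- and 3.03-fold in KO1 and 4.32- and 2.94-fold in KO2. Its part in the PHLDB2 values was not tested.

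**Figure D1:**
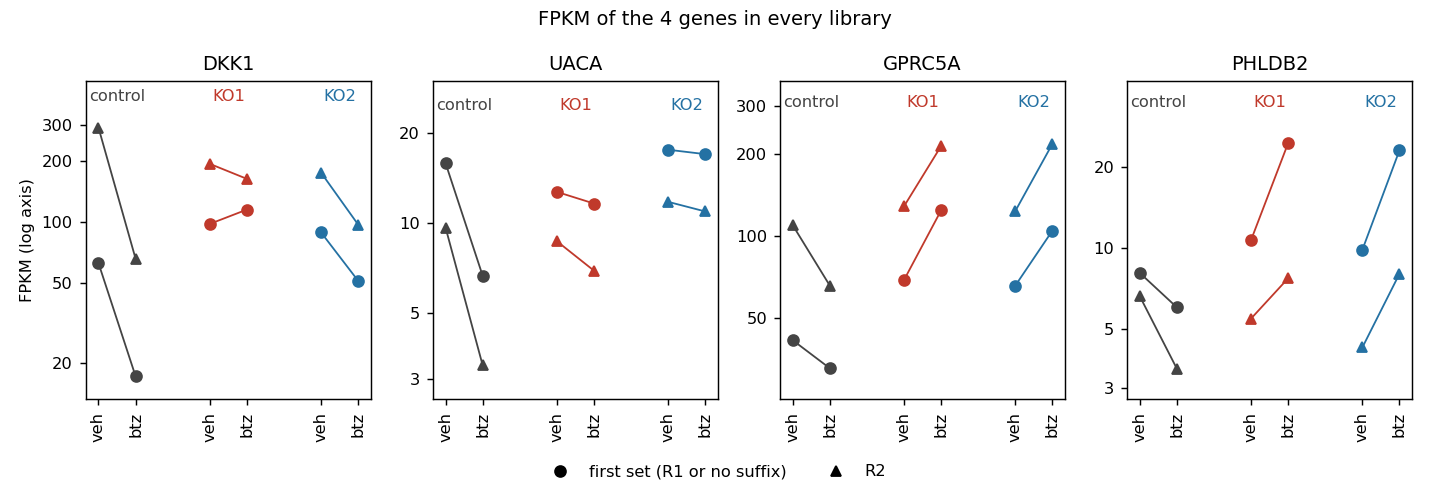
FPKM (log axis) of DKK1, UACA, GPRC5A and PHLDB2 in all 12 libraries, with vehicle (veh) joined to bortezomib (btz) of the same set, by line; circles are the first set and triangles R2. The control lines slope down in all 4 panels, and the knockout lines slope up for GPRC5A and PHLDB2.

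**Figure D2:**
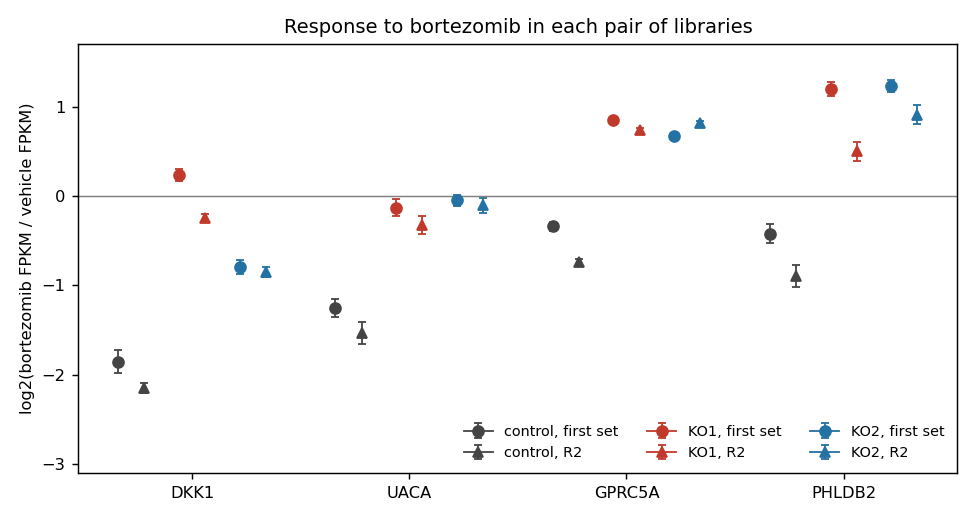
Log2 ratio of bortezomib to vehicle in each same-set pair of each line; points are pairs, and bars the 95% counting interval. DKK1 lies at -1.86 and -2.15 in control and at -0.79 and -0.85 in KO2, while GPRC5A and PHLDB2 lie above 0 in all 4 knockout pairs.

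All 4 genes were lower in both control pairs, as were 39.0% of the 12194 genes tested (mean FPKM of at least 1). In KO1, 1 of 4 (UACA) was lower in both pairs and 2 of 4 (GPRC5A, PHLDB2) were higher, beside 36.6% and 37.8% of all genes. In KO2, 2 of 4 (DKK1, UACA) were lower and 2 of 4 higher, beside 40.3% and 37.3%. All 4 met the joint criterion of a lower value in both control pairs and a larger ratio in every knockout pair than in the control pair of its set, which 12.4% of all genes met. The choice fixed these counts, and nothing is read from them. The median log2 difference of the 4 genes was -0.89 in control, 0.39 in KO1 and 0.33 in KO2, beside -0.008, 0.005 and -0.024 over all genes. All 4 passed the filter on low values, at mean levels of 118, 108, 11.1 and 9.79 FPKM for DKK1, GPRC5A, UACA and PHLDB2.

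**Figure D3:**
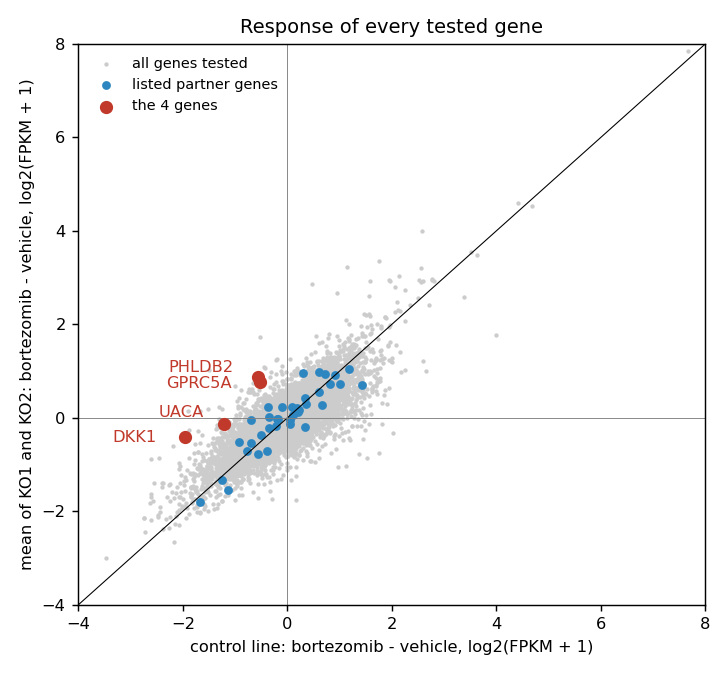
Difference between bortezomib and vehicle on the log2(FPKM + 1) scale in the control line (x) and averaged over KO1 and KO2 (y) for every tested gene; the diagonal marks equal responses. The 4 genes (red) lie above the diagonal and left of 0, and 49 partner genes were listed, of which the 38 tested are in blue.

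With vehicle, knockout and control lines were not ordered the same way in the 2 sets for DKK1 and PHLDB2. DKK1 in KO1 was 1.56 times the control level in the first set and 0.663 times in R2, and in KO2 1.42 and 0.599 times. PHLDB2 was 1.32 and 0.825 times in KO1 and 1.22 and 0.645 times in KO2. GPRC5A was above control in all 4 ratios, from 1.13 to 1.66 times. UACA was below control in KO1 (0.801 and 0.900 times) and above it in KO2 (1.11 and 1.22 times). With bortezomib all 16 ratios exceeded 1, a direction that the choice of the genes favoured, so nothing is read from this count. GPRC5A was 3.19 to 3.79 times the control level, PHLDB2 2.17 to 4.07 times and UACA 1.75 to 3.28 times. DKK1 was 6.66 and 2.48 times the control level in KO1 and 2.96 and 1.47 times in KO2. For 3 of the 4 genes, all but DKK1, both bortezomib libraries of both knockout lines exceeded both of the control line, as in 7.90% of all genes. The choice favoured this order as well.

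The 4 genes also differed between the sets. DKK1 was higher in R2 than in the first set in 6 of 6 groups, by 0.50 to 2.21 on the log2 scale, and GPRC5A by 0.78 to 1.38. PHLDB2 and UACA were lower in R2 in 6 of 6 groups, with differences of -1.55 to -0.25 and -0.82 to -0.50. The median over all genes was -0.34 to -0.11. The share of all genes with 1 sign in 6 of 6 groups is not given here. Across genes, these differences correlated between groups at 0.696 to 0.89, so an equal sign need not be particular to the 4. The share of mitochondrial reads moves with the split between sets, and its part was not tested. The counting interval of a member's level was narrow beside these differences: 536 to 40613 reads per library gave 95% Poisson half-widths of 0.97% to 8.56%, which cover counting error only.

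KO1 and KO2 were compared with limma on log2(FPKM + 1), and Benjamini-Hochberg adjusted p over all tested genes. The labels do not say whether the libraries of a group came from separate cultures, so p-values measure the spread between these libraries. With vehicle, 0 of the 4 genes passed without a block or with the title suffix (R1, R2 or no number) as a block, beside 0.0656% and 3.00% of all genes. At unadjusted p under 0.05 there were 0 of the 4 without the block and 1 with it, beside 286 and 1765 of the 12194 genes tested. The blocked difference between KO1 and KO2 with vehicle was 0.14 for DKK1 (95% interval -0.24 to 0.53), 0.06 for GPRC5A (-0.28 to 0.41) and 0.20 for PHLDB2 (-0.22 to 0.63). For UACA it was -0.42 (-0.71 to -0.13, adjusted p 0.139), with KO1 at 0.722 and 0.738 times KO2. With voom on recovered reads 0 of 4 passed as well.

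With bortezomib, DKK1 was higher in KO1 than in KO2 by 0.95 log2 units, or 2.25- and 1.68-fold in the 2 sets. Without the block its SE was 0.85 and the adjusted p was 1, so the call was not made. With the block the 95% interval was 0.57 to 1.34 and the adjusted p 0.0292, which passes. With a block that puts the unnumbered control libraries on the level of R1 the SE was 0.35 and the adjusted p 0.266, and the call was not made. Fitted without a block, the DKK1 difference was 0.50 when KO2 bortezomib R1 was left out and 1.41 when KO2 bortezomib R2 was left out. Without the block 0 of 4 genes passed, and with it 1 of 4, beside 0.0410% and 1.82% of all genes. At unadjusted p under 0.05 there were 0 of 4 without the block and 2 with it, beside 241 and 1617 of the 12194 genes tested. UACA was lower in KO1, at 0.683 and 0.633 times KO2, with a difference of -0.55 (blocked 95% interval -0.84 to -0.26, adjusted p 0.0732). With voom and the block UACA passed too, at -0.61 and adjusted p 0.0355. GPRC5A and PHLDB2 differed by 0.11 (blocked 95% interval -0.24 to 0.46) and 0.02 (-0.41 to 0.44). These intervals do not show that the lines are alike.

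The difference in response between KO1 and KO2 was 0.81 for DKK1 (blocked 95% interval 0.26 to 1.35, unadjusted p 0.00831, adjusted p 1), 0.05 for GPRC5A, -0.18 for PHLDB2 and -0.13 for UACA. By limma 0 of the 4 genes and 0% of all genes passed, both without and with the block. At unadjusted p under 0.05 there were 29 genes without the block and 280 with it, and with voom 5 and 224, again with no gene past the adjusted threshold.

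**Figure D4:**
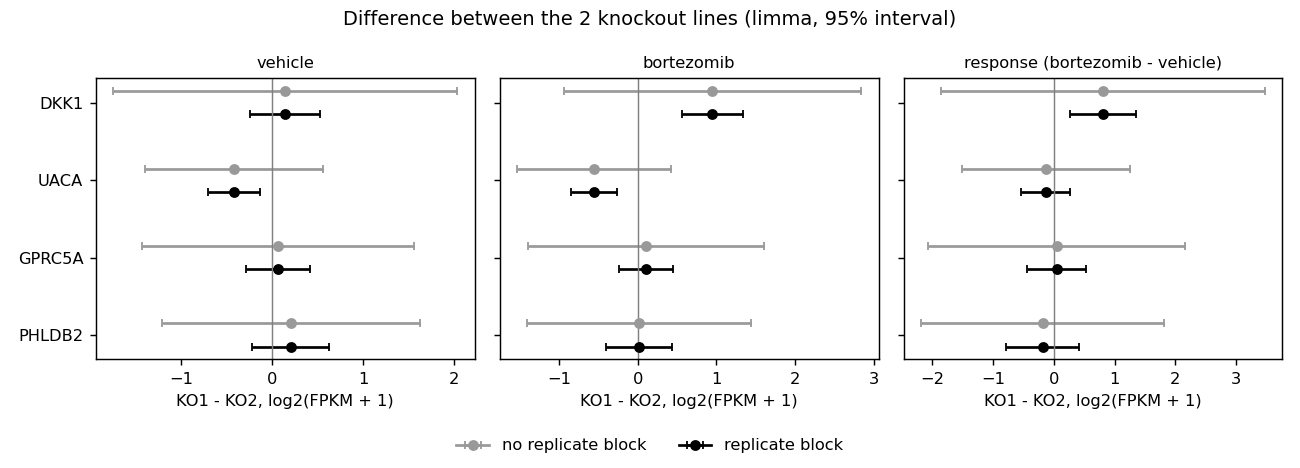
Difference KO1 minus KO2 on the log2(FPKM + 1) scale in vehicle, in bortezomib and in the response, with 95% intervals from limma without the title suffix as a block (grey) and with it (black). The black bortezomib interval of DKK1 runs from 0.57 to 1.34 and that of UACA from -0.84 to -0.26, while those of GPRC5A and PHLDB2 span 0.

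Genes that act with the 4 were followed in 5 lists of 49 genes, of which 38 were tested. Without the block 0 of 38 passed in any line by limma, beside 0.467%, 0.238% and 0.320% of all genes in control, KO1 and KO2. At unadjusted p under 0.05 there were 7, 6 and 7 of the 38, beside 1498, 1153 and 1169 of the 12194 genes tested. With the block 9 were higher and 7 lower in control (42.1% of the 38, beside 32.4% of all genes). In KO1 7 were higher and 6 lower (34.2%, beside 27.7%), and in KO2 8 and 6 (36.8%, beside 27.0%). Of the genes called, 4 passed the filter on low values through 1 treatment alone, AXIN2, NOTUM and TCF7 through bortezomib and RARB through vehicle, so that a difference was built into their entry and nothing is read from their calls. Among the 33 genes whose mean reached 1 FPKM in both treatments, 6 were higher and 6 lower in control, 5 and 6 in KO1 and 5 and 5 in KO2. Of these, KIF21A, KREMEN1, PAWR, PHLDB3 and PPFIA1 were called higher in all 3 lines, and DAG1, KANK2 and LRP5 lower. PPFIA1 is outside the rule for named genes and was named after its values were seen. None was called in opposite directions. The share of all genes called in the same direction in all 3 lines is not given here, nor one for genes past the filter in both treatments. Nothing is therefore read from these counts or from those per list below. The adjusted p-values given below are from the blocked limma fit.

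Among the Dickkopf family and its receptors, 5 of 8 were tested, and 1 was higher and 1 lower in control, against 1 and 3 in each knockout line. The median log2 difference was -0.39 in control, -0.69 in KO1 and -0.73 in KO2. LRP5, the co-receptor DKK1 binds, fell by 1.14 in control (39.9 ± 25.4 to 17.0 ± 9.78 FPKM, mean ± SD, n = 2, limma adjusted p 0.00103), by 1.59 in KO1 and by 1.49 in KO2. KREMEN1, the Dickkopf co-receptor, rose by 1.01 in control (adjusted p 0.00324), 0.70 in KO1 and 0.77 in KO2. DKK3, a family member, had a difference of -0.39 in control (adjusted p 0.0991) and fell by 0.69 in KO1 and 0.75 in KO2. LRP6, the other co-receptor, had -0.55 in control (adjusted p 0.0627) and fell by 0.83 in KO1 and 0.73 in KO2. Of the Wnt feedback targets 5 of 10 were tested, but only 2 reached a mean of 1 FPKM in both treatments, of which 0 were called higher by the blocked limma fit in any line and 1 lower in control, 1 in KO1 and 0 in KO2. Over all 5 the calls were 3 higher and 1 lower in control, 2 and 1 in KO1 and 3 and 0 in KO2, and every higher call was of AXIN2, NOTUM or TCF7. AXIN2, a destruction complex scaffold that Wnt signalling induces, was 0.433, 0.515 and 0.672 FPKM with vehicle and 1.7, 1.51 and 2.63 with bortezomib in control, KO1 and KO2 (group means, n = 2). NOTUM, a secreted Wnt deacylase, was 0.326, 0.137 and 0.257 with vehicle and 2.16, 1.32 and 1.81 with bortezomib. TCF7, a TCF/LEF transcription factor, was 0.784, 0.866 and 0.908 with vehicle and 1.78, 1.41 and 2.10 with bortezomib. These 3 are values only. TNFRSF19, a receptor, fell by 0.77 in control and 0.92 in KO1, with -0.51 in KO2 (adjusted p 0.056).

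All 11 cortical microtubule-anchoring partners of PHLDB2 were tested, and 4 were higher and 2 lower in control and 3 and 2 in each knockout line. KANK2, which links adhesions to the cortical complex, fell by 1.68 in control (10.7 ± 4.94 to 2.5 ± 0.186 FPKM, n = 2, limma adjusted p 0.000643), 1.86 in KO1 and 1.75 in KO2. DAG1, dystroglycan, fell by 1.26, 1.40 and 1.26. KIF21A, a kinesin at the same sites, rose by 1.43 in control (adjusted p 0.000204), 0.55 in KO1 and 0.84 in KO2. PHLDB3, a paralog of PHLDB2, rose by 0.61, 1.15 and 0.80. Each of these 4 was called in the same direction in all 3 lines.

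Of the GPRC5 family and retinoic acid genes 10 of 12 were tested, and 0 were higher and 2 lower in control, 0 and 0 in KO1 and 0 and 1 in KO2. One of the lower calls in control and the one in KO2 are of RARB, a retinoic acid receptor, which was 4.11, 0.538 and 2.0 FPKM with vehicle and 1.6, 0.254 and 0.739 with bortezomib in control, KO1 and KO2 and is given as values only. GPRC5B, a paralog of GPRC5A, fell by 0.69 in control (adjusted p 0.0385), with -0.64 in KO1 and -0.45 in KO2. Of the apoptosome and UACA partners 7 of 8 were tested, and 1 was higher and 1 lower in control, and 1 and 0 in each knockout line. PAWR, which binds UACA, rose by 0.71, 0.94 and 0.95 in control, KO1 and KO2. CYCS, cytochrome c, fell by 0.70 in control (adjusted p 0.0146), with 0.06 in KO1 and -0.15 in KO2. Whether responses differ between lines was not tested for these genes.

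**Figure D5:**
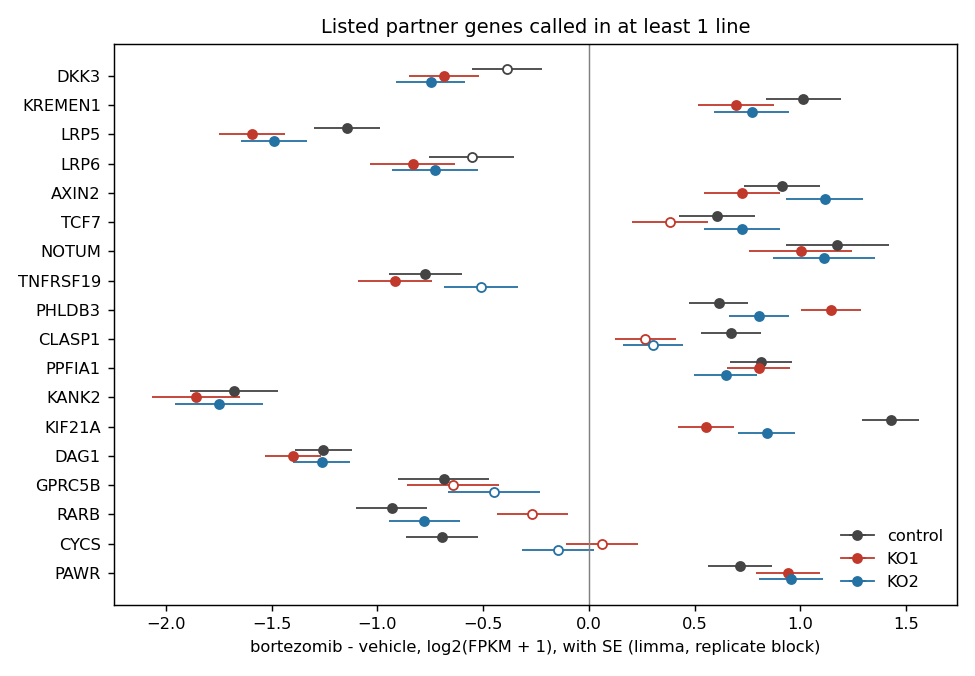
Log2 difference between bortezomib and vehicle of the listed partner genes that were called in a line with the title suffix as a block, by line, with SE; filled points passed an adjusted p of 0.05. AXIN2, NOTUM, TCF7 and RARB entered through 1 treatment alone. LRP5, KANK2 and DAG1 lie below 0 and KREMEN1, KIF21A and PAWR above 0 in all 3 lines.

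After the mean of each set was removed, GPRC5A and PHLDB2 had a Pearson r of 0.907 over the 12 libraries, and the other 5 pairs of the 4 genes 0.394 to 0.622. The libraries share line, treatment and set, so these are descriptions. The choice favoured a shared response in these 4 genes, so nothing is read from the r of 0.907. GPRC5A was higher and PHLDB2 lower in R2 in 6 of 6 groups, a difference that removing the set means takes out. Their r without this removal is not given here. With set means removed, over 12190 genes, those most like DKK1 were FAM216A (r 0.959), FICD, an endoplasmic reticulum AMP-transferase (0.952), and TNFRSF12A, the TWEAK receptor (0.930). The most like UACA were BZW2 (0.914), KRT80, a keratin (0.909), and PHF10, a chromatin remodelling subunit (0.908). KRT80 had log2 differences of -1.32 in control, -0.30 in KO1 and -0.08 in KO2. The most like GPRC5A were OXSR1, a kinase (0.951), FAM73B (0.949) and the pseudogene PRR13P5 (0.935), and the most like PHLDB2 were FAM73B (0.923), RMND1 (0.920) and CERS5, a ceramide synthase (0.918). Without removal of the set means r was 0.16 for FAM216A, -0.149 for OXSR1 and 0.004 for PRR13P5, -0.308 for FAM73B with PHLDB2 and -0.113 for CERS5. It stayed between 0.873 and 0.946 for FICD, TNFRSF12A, RMND1, BZW2, KRT80, PHF10 and FAM73B with GPRC5A.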

How the data were processed

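RNA-seq was measured in 12 libraries. The deposited table gives FPKM per gene, computed by the authors, with gene lengths and positions. CASAVA, STAR 2.5, HTSeq 0.6.1, DESeq2 and the build hg19 are named, without roles, per the submitters' processing notes; the strand setting is not given in the sources used here. Of the 58676 gene IDs, 95.2% have the same position in GENCODE 29 as in the table, including all 4 genes, so positions here are those of GRCh38. The step from counts to FPKM sets a gene's value against the total, so the differing mitochondrial shares can move other genes' values.

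FPKM times length gave whole reads (within 0.01) for 100% of values, used for depth (13211608 to 23819258 reads), 95% Poisson intervals and voom. Tests used limma 3.58.1 in R 4.3.3 (lmFit, contrasts, eBayes with trend) on log2(FPKM + 1), for the 12194 genes (20.8%) whose FPKM averaged 1 or more, with 6 group means, all 12 libraries and Benjamini-Hochberg adjustment. Fold changes on this scale understate those of low genes. The fit was also run on simulated data, in which a gene's shift in R2, where present, was the same in every group. In the measured libraries this shift differed between groups, so nothing about the calls is read from that run. A block by title suffix (R1, R2, no number) was an alternative: the R2 minus first-set differences of the 6 groups correlated at 0.696 to 0.89 across genes (15 pairs), so equal suffixes were taken as paired, with the unnumbered control libraries set beside R1 by this check and not by a label. Other alternatives were the pseudocount, the filter, scaling and leaving out each library.

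The members and lists were chosen with earlier results of these data known. Named genes were the 4 members, NFE2L1, listed partners called in a line (at most 3 per list and line, largest change first) and the 3 genes with the highest set-centred Pearson r with each member. Python 3.11.15 was used for the rest.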

Additional observations from a re-analysis of the deposited data

Results flagged for a closer look

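PHLDB2 and GPRC5A had opposite directions in the lines: every control pair was lower with bortezomib and every knockout pair higher. The mean log2 ratio of the 4 knockout pairs minus that of the 2 control pairs was 1.62 for PHLDB2 and 1.31 for GPRC5A. The difference was not tested, since both genes were chosen by it. PLCXD2, which overlaps PHLDB2, was higher with bortezomib in both sets of all 3 lines.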

How the results depend on the processing

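Under the 11 alternatives other than leaving out a library, the control response was -2.04 to -1.83 for DKK1 and -1.39 to -0.83 for UACA. It was -0.56 to -0.43 for GPRC5A and -0.65 to -0.34 for PHLDB2. The genes were chosen by this direction on the same libraries, so its sign being kept is no support for it. The block by suffix left the estimate unchanged (DKK1 -1.97 with and without it). The number of the 38 partner genes called, 0 in each line, became 16, 13 and 14 in control, KO1 and KO2 with the replicate block by suffix, 16, 14 and 14 with the unnumbered libraries on the R1 level, and 18, 16 and 17 with voom and the block. It became 2, 2 and 1 with quantile scaling, 1, 1 and 1 without mitochondrial genes, 1 in KO1 with a pseudocount of 0.1, and 1 in control and 1 in KO2 without the filter. Leaving out a library gave 0 to 1 in KO1 and 0 to 1 in KO2, with 1 in both lines when either control vehicle library was left out. Members called between KO1 and KO2 in bortezomib, 0 without a block, were 1 with the replicate block and 2 with voom and the block; no member was called with the unnumbered libraries on the R1 level. The PHLDB2 difference between KO1 and KO2 in bortezomib changed from 0.02 to -0.0215 with a common FPKM sum; the cause was not tested.

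Leaving out 1 library leaves a group with a lone library, assumed to vary like the others. The difference between KO1 and KO2 then ranged, with changes of sign, in vehicle from -0.35 to 0.63 for DKK1, -0.32 to 0.72 for PHLDB2 and -0.39 to 0.51 for GPRC5A. In bortezomib it ranged from -0.76 to 0.79 for PHLDB2 and -0.42 to 0.63 for GPRC5A, and in the response from -0.96 to 0.59 for PHLDB2, -0.48 to 0.57 for GPRC5A and -0.47 to 0.20 for UACA. Each change of sign came with a knockout library left out. This was fixed in advance, since control libraries do not enter this difference in a fit without a block. Without a change of sign it ranged from 0.50 to 1.41 for DKK1 and -0.89 to -0.22 for UACA in bortezomib, 0.32 to 1.3 for DKK1 in the response and -0.69 to -0.15 for UACA in vehicle. The control response of DKK1 was -3.07 without the unnumbered control vehicle library, -0.86 without control vehicle R2, -1.03 without unnumbered control bortezomib and -2.90 without control bortezomib R2. That of PHLDB2 ranged from -0.87 to -0.25 and that of UACA from -1.63 to -0.81, and DKK1 in KO2 from -1.3 to -0.33. The control response of GPRC5A was 0.16 without the control vehicle R2 library. UACA was 0.05 in KO1 without vehicle R1 and 0.13 without bortezomib R2, and in KO2 0.20 and 0.22 without the same libraries of that line. DKK1 in KO1 was 0.48 without vehicle R2 and 0.24 without bortezomib R1, and PHLDB2 in KO1 was 0.003 without bortezomib R1. With 2 libraries per group and no block in these fits, the spread between sets and not read depth limits these values. The ratios of same-set pairs are not covered by this.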
